A study of Mus musculus with 127 samples.

Results

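Cell26 is 1 of 10 nuclei of F123 mouse embryonic stem cells that were cut into serial slices and read by Sequential-GAM. All autosomal windows located in this nucleus were used, 127529 of the 1132635 autosomal windows of the series. A window was counted once in each position file that lists it. The nucleus was chosen by its correlation of axis position and gene density, the strongest of the 10. Genome architecture mapping cuts a nucleus into thin sections called nuclear profiles, sequences the DNA of each, and reads from the presence of a genomic window in a section where that window lay along the cutting axis. The labels give the strain of the cells as CAST x 129, with LIF in the medium and MEF feeder cells removed by repeated passage on feeder-free plates. No treatment was applied, and all 10 nuclei share this line and culture. The series held 122 profiles, 1 negative control and 4 positive controls, and the controls have no positions. Cell26 had 7 profiles of batch 18, and the other 9 nuclei had 8 to 23 profiles each, 4 nuclei in batch 16 and the rest in batch 18.

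In interphase each chromosome fills its own territory, and within it gene-rich, early replicating chromatin keeps apart from gene-poor chromatin. Gene-poor chromatin lies at the lamina under the nuclear envelope and around nucleoli in many mouse cells, and gene-rich chromatin lies more often in the interior. A cutting axis crosses this arrangement in an arbitrary direction, so its low and its high end have no biological name, and the sign of a gradient cannot be compared between nuclei.

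The 2 position files of Cell26, numbered 0 and 1 by the authors, listed 65452 and 62077 autosomal windows of 10 kb. Window counts add both files unless a file is named, and 55826 of the Cell26 entries are windows listed in both. The other 9 nuclei listed 111678 ± 37865 windows (SD, n = 9). What the 2 file numbers stand for is not given in the sources used here, and they were treated as 2 views of 1 nucleus, not as replicates. Of the Cell26 windows, 71.2% lay exactly on 7 grid positions 0.2 axis units apart, here called slices 1 to 7 from the low end (5.61) to the high end (6.81), and the rest lay between them. A slice is thus a position on the axis, and which profile belongs to it is not given. In other nuclei the numbers can differ, with 17 positions for 16 profiles in Cell18 and 11 for 10 in Cell38. The unit of the axis is not named. Windows were averaged into 2414 bins of 1 Mb with a median of 43 windows each, and bin positions ran from 5.66 to 6.58 with a median of 6.02. Gene density is the number of RefSeq protein-coding genes whose midpoint lies in the bin. The files used here hold no read counts, so the depth behind a window is unknown, and a single nucleus gives no replicate error, so the values of Cell26 itself carry no test.

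Gene-rich DNA lay toward the high end of the axis in Cell26, and DNA without genes toward the low end. The 267 bins with 20 or more genes had a mean position of 6.08 ± 0.17 (SD over bins), and the 271 bins without a protein-coding gene had a mean of 5.94 ± 0.14. The classes between them were in the order of their gene number, with means of 6.0 for 1 to 4 genes, 6.03 for 5 to 9 genes and 6.06 for 10 to 19 genes. The spread within each class was as wide as the whole range of class means, so gene number placed a single bin only loosely. Windows at slices 5 to 7 made up 22.6% of the slice windows of the bins with 20 or more genes and 10.5% of those of the bins with none. Both files gave the same order of the extremes, with 6.07 for the richest class and 5.94 for the bins without genes in file 0, and 6.08 and 5.94 in file 1. Over the 2414 bins the Spearman correlation of position and gene density was 0.238 (0.210 in file 0 and 0.225 in file 1). Neighbouring bins share chromosomes and slices, so this value is a description and has no p.

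The slices themselves differed in how many genes surrounded their windows. Mean gene density was 8.18 genes per Mb at slice 1, 8.65 at slice 2, 9.06 at slice 3, 9.11 at slice 4, 10.9 at slice 5, 10.8 at slice 6 and 10.0 at slice 7, against 9.02 over all windows on slices. The mean over all autosomal bins, each counted once whatever its number of windows, was 8.37. Both files put their highest value at slice 5 (10.9 in each) and their lowest at slice 1 (8.06 in file 0 and 8.32 in file 1). At slice 4 they were farther apart, at 8.68 in file 0 and 9.60 in file 1. Other measures of gene content went the same way. The share of windows inside a gene body was between 42.8% and 44.1% at slices 1 to 3, 49.3% at slice 4 and between 53.0% and 54.1% at slices 5 to 7. Windows holding a transcription start were 5.52% of slice 1 and 9.64% of slice 6. Windows in bins without any protein-coding gene were 12.6% of slice 1 and 4.84% of slice 7. Windows placed between slices ran the same way, with 7.37 genes per Mb between slices 1 and 2 and 12.2 between slices 6 and 7, where 200 windows lay.

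The slices with the most genes were also those with few windows. Slices 1, 2 and 4 held 26400, 18595 and 26088 windows, slice 5 held 9210, slice 7 held 4961, and slices 3 and 6 held 3326 and 2167. Over the 7 slices gene density had a Spearman correlation of 0.857 with axis position and of -0.571 with window number. Slices also differed in how their windows sat on the chromosomes. Where a window lay at slice 4, the next 10 kb window of the genome lay there too in 36.7% of cases, and the share was 34.7% at slice 1, 31.9% at slice 2 and 20.9% at slice 7. It was 1.74% at slice 3, 5.82% at slice 5 and 2.63% at slice 6, so that most windows of these 3 slices were isolated. Part of this contrast goes with the number of windows, which alone would give 5.37%, 3.78%, 0.676%, 5.32%, 1.88%, 0.442% and 1.01% at slices 1 to 7. The share was above that value at every slice, by 2.58 times at slice 3, 3.10 times at slice 5 and 5.95 times at slice 6, and by 6.45, 8.44, 6.91 and 20.7 times at slices 1, 2, 4 and 7. Slice 6 was thus close to slices 1 and 4 by this ratio. Without slices 3, 5 and 6 the correlation over bins was 0.157, and with the windows of slices 1, 2, 4 and 7 alone it was 0.121. The part of window number and isolation in the gradient was not tested in Cell26.

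**Figure D1:**
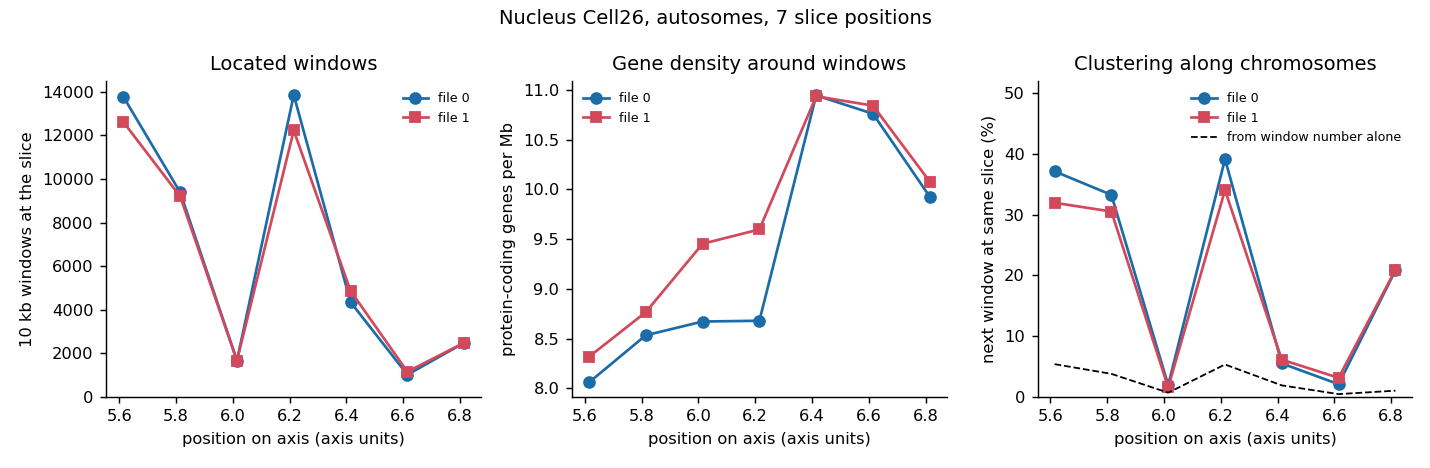
The 3 panels plot, against axis position, the number of windows at each of the 7 slice positions, the mean number of protein-coding genes per Mb around them, and the percent of windows whose next window lies at the same slice, for file 0 (circles) and file 1 (squares). Gene density is lowest at slice 1 and highest at slice 5 in both files, and slices 3, 5 and 6 have few windows, with a next window at the same slice in at most 6.11% of cases in either file.

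Slices 1 and 2 shared several leading chromosomes, slices 4 and 7 had others, and slices 3, 5 and 6 took windows from all autosomes nearly by length. At slice 1, chromosome 6 had 2.0 times the share of windows that its length would give, chromosome 18 had 1.90 times and chromosome 12 had 1.74 times, whereas chromosome 8 had 0.398 times. Slice 2 was led by chromosome 6 (1.88 times), chromosome 1 (1.87 times) and chromosome 10 (1.83 times). Slice 4 was led by chromosome 8 (2.85 times) and chromosome 5 (2.15 times), with chromosomes 12, 16 and 13 lowest at 0.326, 0.343 and 0.362 times. Slice 7 was led by chromosome 9 (2.06 times), chromosome 3 (1.90 times) and chromosome 17 (1.51 times), and chromosome 12 had 0.207 times its share there. Chromosomes were not located equally well in the whole nucleus, from 0.546 times the mean number of windows per length on chromosome 19 to 1.35 times on chromosome 4, with 0.5999 on chromosome 16 and 0.623 on chromosome 13. Set against their share of all Cell26 windows instead of length, chromosome 8 still led slice 4 (2.33 times), with chromosomes 12 (0.330 times) and 1 (0.378 times) lowest. By that measure slice 7 was led by chromosomes 3, 13 and 16 (3.01, 2.15 and 1.80 times), slice 1 by chromosome 12 (1.76 times) and slice 2 by chromosome 1 (1.79 times). At slices 3, 5 and 6 chromosomes came close to their length shares, and the SD of the log2 ratio over the 19 autosomes was 0.15, 0.25 and 0.31, against 0.86, 0.90, 0.95 and 0.92 at slices 1, 2, 4 and 7. Set against windows instead of length, slices 3, 5 and 6 were less even. Slice 3 ran from 0.635 times (chromosome 6) to 1.96 times (chromosome 16). Slice 5 ran from 0.513 times (chromosome 6) to 2.02 times (chromosome 19), and slice 6 from 0.452 times (chromosome 18) to 2.26 times (chromosome 19).

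**Figure D2:**
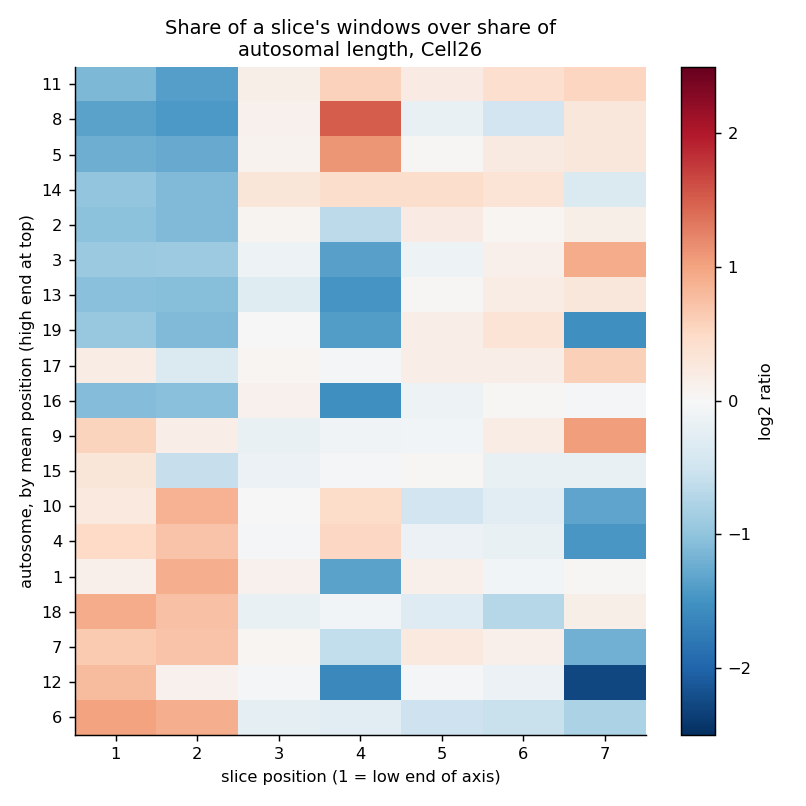
Rows are the 19 autosomes ordered by mean position, columns are the 7 slices, and the colour is the log2 of a chromosome's share of the slice's windows over its share of autosomal length. Chromosome 8 at slice 4 is the darkest red field (2.85 times), chromosome 12 at slice 7 the darkest blue (0.207 times), and the columns of slices 3, 5 and 6 are pale.

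The bins that filled a slice show how local its content was. The bin with the most windows at slice 1 was chr12:29000001-30000000, with Myt1l (a zinc finger factor of neurons) and Pxdn (a peroxidase of the extracellular matrix), where 118 of 135 slice windows lay there. At slice 2 the bins with the most windows held Cdh2 (N-cadherin) on chromosome 18 and Cd9 and Cd27 on chromosome 6. At slice 4, chr11:84000001-85000000 with Acaca, an acetyl-CoA carboxylase of fatty acid synthesis, had 117 of 122 windows. At slice 5 the fullest bins were chr14:5000001-6000000, chr14:6000001-7000000 and chr14:3000001-4000000, stretches of near-identical gene copies mostly named by Gm numbers, with 35 of 51, 30 of 49 and 26 of 47 windows. Reads of such copies cannot be placed with certainty, so their position is uncertain. At slice 7 the bin chr3:37000001-38000000 with Fgf2, a growth factor, had 32 of 40 windows, and chr11:82000001-83000000 with C-C chemokine genes had 36 of 60. Counted by the slice that held more of a bin's windows than any other slice, slice 1 took 966 bins, slice 2 took 373, slice 4 took 640, slice 5 took 262 and slice 7 took 159, and slices 3 and 6 took 7 each. The 262 bins of slice 5 had 13.3 genes on average and 1.91% of them had no gene, against 7.03 genes and 15.1% for the 966 bins of slice 1.

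The gradient was present within chromosomes. Over the 19 chromosome means, treated below, the correlation was also positive but rested on few values. With each chromosome's mean subtracted, the correlation over bins was 0.231 (0.210 in file 0 and 0.209 in file 1). The files are not independent, since 43.8% of the listed windows are in both. The within-chromosome value was 0.241 for windows in 1 file only and 0.143 for windows in both, and over bins without that subtraction the values were 0.244 and 0.161. Single chromosomes had positive values in 18 of 19 cases, and the same count held in file 0 and in file 1. The highest were chromosome 14 (0.483), chromosome 17 (0.456), chromosome 2 (0.423) and chromosome 11 (0.382), the median was 0.217, and chromosome 6, at the low end of the axis, had -0.07. In each chromosome, bins at or above the cutoff of the 20% with most genes were set against those at or below the cutoff of the 20% with fewest. Ties made many gene-poor groups larger than 20%, as with 45 of 122 bins on chromosome 14. The gene-rich bins lay higher in 18 of 19 chromosomes, by a median of 0.074 axis units. On chromosome 17 the gene-rich bins averaged 6.12 and the gene-poor bins 5.94, and on chromosome 5 they averaged 6.18 and 6.02. On chromosome 19 the averages were 6.03 in both. Over the slices, chromosome composition alone would have given 8.57 to 8.98 genes per Mb, with 8.69 at slice 1 and 8.66 at slice 7. The observed density was above that by 2.09 genes per Mb at slice 5, 1.92 at slice 6 and 1.34 at slice 7. These excesses hold an offset, since the chromosome means also took in windows between slices. Those had 8.02 genes per Mb, against 9.02 on slices.

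**Figure D3:**
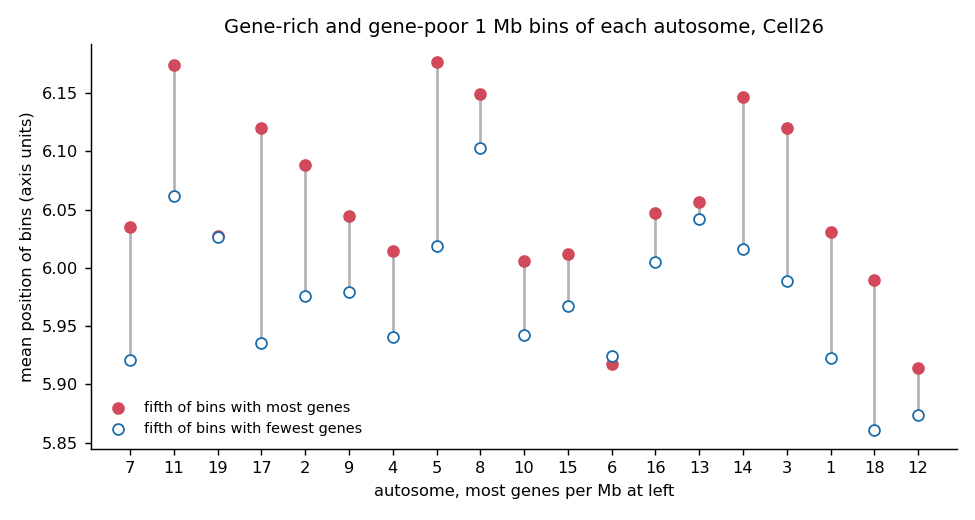
For each autosome, ordered from most to fewest genes per Mb, the filled point is the mean position of the bins with the most genes and the open point that of the bins with the fewest, in axis units. The filled point is higher in 18 of 19 chromosomes, and chromosome 6 is the exception.

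Between chromosomes the mean positions spanned 0.218 axis units, 18.1% of the sampled axis. From the low end the order began with chromosome 6 (5.90), chromosome 12 (5.91), chromosome 7 (5.96) and chromosome 18 (5.96), and it ended with chromosome 14 (6.08), chromosome 5 (6.11), chromosome 8 (6.12) and chromosome 11 (6.12). SDs over the bins of 1 chromosome were between 0.108 and 0.206, so neighbours in this order overlapped widely. The order of the 19 chromosomes in file 0 and in file 1 had a Spearman correlation of 0.835. Mean position and gene density had a correlation of 0.296 over the 19 chromosomes (0.258 in file 0 and 0.381 in file 1), and of 0.186 when chromosomes 8 and 11 were left out. Chromosome 7, with the most genes per Mb (14.2, among them many olfactory receptors), had the mean 5.96 given above, and chromosome 12, with the fewest (5.75), had 5.91.

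Chromosomes 8 and 11 lay at the high end of the order, 0.000685 axis units apart. They were the closest of the 171 pairs of autosomes in Cell26, where the median pair was 0.0698 apart. The pair was chosen in Cell26 with these positions known, so its rank there is a description only. The files differed by more than that distance, with chromosome 8 at 6.133 in file 0 and 6.110 in file 1. Chromosome 11 was at 6.137 and 6.108, and in file 1 chromosome 5 lay above both (6.141). Chromosome 8 was held together at 1 slice. Of its windows on slices 67.0% lay at slice 4, and the other slices had between 1.41% (slice 6) and 9.48% (slice 1). Slice 4 was the fullest slice of 96 of its bins, and an unbroken run of 26 Mb, chr8:88000001-114000000 with 241 genes, belonged to it. The SD over its bins was 0.108, the smallest of the 19 chromosomes. Its gene density of 8.21 per Mb was rank 9 of 19, and its correlation within the chromosome was 0.201. The lowest stretch was chr8:50000001-60000000, with a mean of 5.99 and 34 genes, and the highest was chr8:110000001-120000000, with 6.17 and 80 genes.

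Chromosome 11 was spread over more slices than chromosome 8. At slice 4 lay 47.1% of its slice windows, at slice 1 14.7%, at slice 5 12.8%, at slice 2 8.69% and at slice 7 8.66%. It had 13.5 genes per Mb, the second highest value, a correlation of 0.382 within the chromosome and an SD of 0.136 over bins. Its stretch with the fewest genes per bin, chr11:10000001-20000000 with 23 genes in 10 bins, was also its lowest, with a mean of 5.995. The highest were chr11:100000001-110000000 (6.24, 208 genes), where 32.5% of the slice windows lay at slice 7, and chr11:80000001-90000000 (6.23, 129 genes). Gene-rich stretches were not all high, since chr11:70000001-80000000 with 226 genes had a mean of 6.12, the level of the whole chromosome.

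The 3 lowest bins of chromosome 8 held Nrg1, the neuregulin ligand of ErbB receptors (5.74, 22 windows), Glra3, a glycine receptor subunit (5.80, 31 windows), and Ccdc7a (5.83, 23 windows). Its 3 highest held Irf2bp2 and Kcnk1, a transcriptional cofactor and a potassium channel (6.34, 33 windows), Dusp4, a MAP kinase phosphatase (6.32, 76 windows), and Hook3, a microtubule adaptor (6.31, 76 windows). The lowest bins of chromosome 11 held Asb3 and Cpeb4 (5.75, 32 windows), Egfr, the epidermal growth factor receptor (5.79, 43 windows), and Ccng1 and Hmmr (5.83, 43 windows). The highest held Arf2 and Arhgap27 (6.51, 43 windows), Crhr1, a receptor of corticotropin-releasing hormone (6.48, 53 windows), and Dlx3, a homeobox factor (6.47, 46 windows). The files differed by more than 1 slice step in single bins, as in the Nrg1 bin with 5.61 in file 0 and 5.87 in file 1 and in the Arf2 bin with 6.73 in file 0 and 6.30 in file 1.

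**Figure D4:**
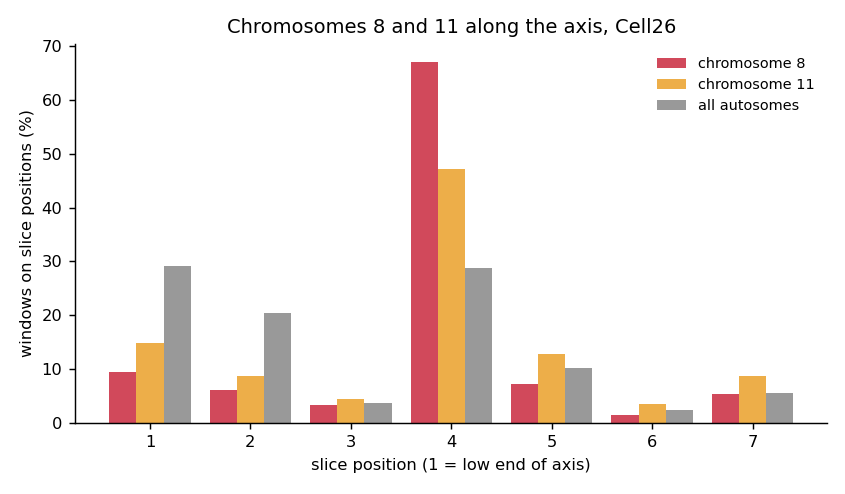
Bars give the percent of windows on slice positions that lay at each of the 7 slices, for chromosome 8, chromosome 11 and all autosomes together. Chromosome 8 has 67.0% at slice 4 and chromosome 11 has 47.1%, against 28.7% for all autosomes, and both are below all autosomes at slices 1 and 2.

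Gene families differed in where their members lay. Over all 20559 located protein-coding genes the median percentile of the bin's position was 59.1, and 58.6% lay above the median bin. Olfactory receptors, the odorant receptors of the nose and the largest family here, had a median percentile of 25.5, with 174 of 1103 above the median bin over 81 bins. Vomeronasal receptors, which detect pheromones, had 36.9, with 29.8% of 349 genes above over 53 bins. Both families sit in bins of many genes (a median over members of 36 and 22, the receptor genes themselves counted), and lay low even so. Without them the correlation over bins was 0.270. Protocadherins, adhesion proteins of neurons, had a median percentile of 12.7 with 4 of 67 above, since most of them share a single bin on chromosome 18 that has the most genes of all autosomal bins, 67, and lay at 5.82. Defensins, antimicrobial peptides, had 30.2, with 31 of 70 above over 8 bins.

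At the other end, all 53 keratin genes, which encode filaments of epithelia, were above the median bin, in 4 bins of chromosomes 11 and 15 (Krt9 and Krt42 at 6.34). C-C chemokines, which attract leukocytes, had a median percentile of 89.5 with 17 of 24 above, with Ccl7 and Ccl8 at 6.39 and Ccl27a and Ccl21d at 5.74. All 19 carboxylesterase genes, enzymes of ester hydrolysis in 3 bins of chromosome 8, and the 4 metallothionein genes, metal-binding proteins in 1 bin, were above the median bin. Of the Hox clusters, which specify position along the body, Hoxa on chromosome 6 had a percentile of 13.03, against 87.3 for Hoxb on chromosome 11, 84.8 for Hoxc and 78.6 for Hoxd. Ribosomal proteins had a median percentile of 69.5 (56 of 80 above, in 74 bins) and proteasome subunits 74.9 (39 of 50). Respiratory complex I subunits had 64.2 (60.5% of 38 above) and C2H2 zinc finger genes 61.7 (58.7% of 385). Both were near the values of all protein-coding genes, 59.1 and 58.6%. Histone genes had 67.9, with 65 of 68 above, in 8 bins. Genes of 1 array share their bin and are not independent.

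The 6 pluripotency genes, factors of the stem cell network, lay across the whole axis. Nanog was at 5.71 (5.69 in file 0 and 5.73 in file 1, 156 windows) and Esrrb at 5.78 (5.75 in file 0 and 5.80 in file 1), both near the low end. Zfp42 was at 5.97 (55 windows) and Klf4 at 6.001 (52 windows), near the median bin. Pou5f1 was at 6.19 (87 windows), in a bin of 61 genes, and Sox2 at 6.51 (6.43 in file 0 and 6.59 in file 1, 52 windows), higher than 99.7% of bins although its bin holds 3 genes. Only 2 of the 6 were above the median bin.

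CpG-rich promoters, here defined over the 300 bases around the start by a GC content of at least 50% and a ratio of observed to expected CpG of at least 0.6, are typical of housekeeping and developmental genes. They can be followed at the level of single windows. Of 20665 protein-coding genes 16457 matched a RefSeq promoter of build GRCm38.p6, which has the coordinates of mm10, and 6068 of these lay on a located window. Windows of the 2698 CpG-rich promoters had a mean position of 6.10, and those of the 3370 others 6.06. The CpG-rich share was 47.3% over all 16457 promoters and 44.5% over the 6068 on a located window. By slice, it was 42.5% at slice 1, 47.2% at slice 2, 50.9% at slice 4, 47.0% at slice 5 and 50.5% at slice 7. At slices 3 and 6 it was 45.2% and 46.2%. The slice with the highest share differed between the files, at slice 7 in file 0 (51.98%) and at slice 4 in file 1 (51.97%). Sequences of 4 promoters, one CpG-rich and one CpG-poor from each end of the axis, show that both kinds occurred at both ends. They were chosen for display with their positions and CpG content known. Each is the 250 bases before the gene's start, 5′ to 3′ on the gene's strand, with every CG in capitals. CG reads the same on both strands, and 93.0% of all 16457 such stretches hold at least 1, with a median of 10. At the high end, Sox2 (chr3:34649745-34649994, plus strand) has 27 and the olfactory receptor gene Olfr1371 (chr11:52213988-52214237, minus strand, bin at 6.33) has 0. At the low end, Rpl27a, a ribosomal protein gene (chr7:109518945-109519194, plus strand, bin at 5.69), has 29 and Nanog (chr6:122707239-122707488, plus strand) has 3.
Sox2: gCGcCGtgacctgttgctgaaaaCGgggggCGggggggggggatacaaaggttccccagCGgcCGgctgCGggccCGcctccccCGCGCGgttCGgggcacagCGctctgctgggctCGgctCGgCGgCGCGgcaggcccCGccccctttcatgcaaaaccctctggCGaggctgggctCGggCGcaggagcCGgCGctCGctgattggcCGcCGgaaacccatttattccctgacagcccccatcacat
Olfr1371: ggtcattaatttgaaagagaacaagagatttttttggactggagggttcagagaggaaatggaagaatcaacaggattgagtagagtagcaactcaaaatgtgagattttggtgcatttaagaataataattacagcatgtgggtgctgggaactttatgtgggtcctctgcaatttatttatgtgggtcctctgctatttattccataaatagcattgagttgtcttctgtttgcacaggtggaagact
Rpl27a: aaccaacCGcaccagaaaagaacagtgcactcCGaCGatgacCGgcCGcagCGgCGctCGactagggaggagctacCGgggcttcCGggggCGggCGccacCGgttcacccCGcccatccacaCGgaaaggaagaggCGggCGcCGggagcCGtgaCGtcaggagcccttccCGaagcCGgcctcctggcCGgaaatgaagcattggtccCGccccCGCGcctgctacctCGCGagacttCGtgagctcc
Nanog: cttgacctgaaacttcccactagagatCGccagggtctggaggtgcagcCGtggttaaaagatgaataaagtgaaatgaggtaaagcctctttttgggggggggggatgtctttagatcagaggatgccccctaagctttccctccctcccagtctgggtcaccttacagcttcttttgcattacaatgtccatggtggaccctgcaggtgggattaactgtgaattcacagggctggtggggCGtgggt

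Cell26 had the strongest gradient of the 10 nuclei over bins, which is how it was chosen. Without regard to sign its correlation was 0.238, against 0.071 ± 0.072 in the other 9 nuclei (SD, n = 9), where Cell27 (0.202) and Cell28 (0.171) came nearest. Within chromosomes the value was 0.231 in Cell26, against 0.064 ± 0.059 in the others, with 0.178 in Cell27 as their highest. Cell26, Cell27 and Cell28 have the fewest profiles of the series (7, 8 and 8), all of batch 18. The other nuclei of that batch, Cell25, Cell38 and Cell39, had 0.030, 0.0023 and 0.071 over bins. The part of the number of profiles and of batch in the gradient was not tested. Between chromosomes Cell26 had 0.296, against 0.305 in Cell18 and 0.302 in Cell38, which were higher, and 0.178 ± 0.103 over the 9 nuclei. The ratio of the highest to the lowest gene density among slices was 1.34 in Cell26, within the range from 1.12 (Cell38) to 1.45 (Cell18) in the other 9.

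**Figure D5:**
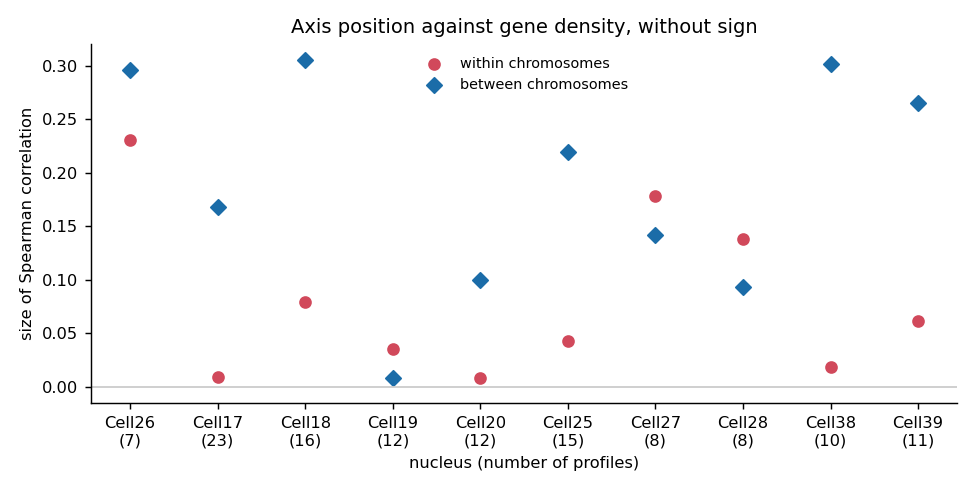
Each nucleus, with its number of profiles in brackets, has a circle for the size of the within-chromosome correlation of axis position and gene density and a diamond for the between-chromosome correlation. Cell26 has the highest circle (0.231), followed by Cell27 (0.178) and Cell28, while its diamond (0.296) is close to those of Cell18 and Cell38.

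Whether nuclei other than Cell26 have such a gradient within chromosomes was asked with each chromosome's mean subtracted from position and gene density. The axis of each nucleus was turned so that its even-numbered autosomes had a positive gradient, and the odd-numbered ones were measured. The 9 nuclei gave 0.051 ± 0.067 (SD), positive in 7 of 9, with an exact two-sided sign-flip p of 0.0469 and 0.0938 after Benjamini-Hochberg adjustment over 4 tests, so it did not pass. Cell26 itself had 0.248 by this measure. Cell27 had the highest of the 9 values (0.188), and without it the mean was 0.034. The relation of few windows and high gene density over slices was -0.272 ± 0.340 in the 9 nuclei, negative in 7 of 9 (exact sign-flip p = 0.0391, adjusted p = 0.0938), against -0.571 in Cell26. It was -0.976 in Cell28, and without that nucleus the mean was -0.184. The correlation over slices of clustering (the share of next windows at the same slice) and gene density was -0.260 ± 0.382, negative in 6 of 9 nuclei (exact sign-flip p = 0.0781), against -0.429 in Cell26. This measure was added after the values of Cell26 had been seen.

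The distance of chromosomes 8 and 11 varied widely among the other nuclei. Their distance was at the 0.292 percentile of the 171 pairs in Cell26, where the pair was chosen. In the others it was at percentiles from 4.97 in Cell18 to 91.5 in Cell25. The percentile minus 50 averaged 8.97 ± 33.6 (SD, n = 9, exact sign-flip p = 0.441, adjusted p = 0.469). Distances of the 171 pairs in Cell26 and in another nucleus had a mean Spearman correlation of 0.017 ± 0.070 (SD, n = 9, exact sign-flip p = 0.469, adjusted p = 0.469). These 9 values share Cell26.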

How the data were processed

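Per the labels' protocols, the DNA of each profile went through whole genome amplification and Illumina sequencing. Trim Galore 0.6.4, Bowtie2 2.3.5, Picard and build mm10 are named, per the submitters' processing notes. Per the file headers, the deposited position of a 10 kb window is a coordinate on the cutting axis, of another unit than counts and without a named scale. The step from reads to positions is not given in the sources used here. The files used here hold no depth per window, and the number of windows stands in for it.

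Positions were averaged into 1 Mb bins per file and then over both files, and positions within 1e-06 axis units of the grid were taken as slices. Genes came from the RefSeq table of GRCm38.p6. Gradients are Spearman correlations. The 4 tests were exact sign-flip permutation tests over the 9 other nuclei, with 512 patterns and a smallest p of 0.00391. The labels do not tell whether nuclei were taken from different cultures, and the p-values refer to the spread over these nuclei alone, which may be technical. The computation was tested on simulated data with shuffled positions and planted gradients. Python 3.11.15, NumPy 2.4.6, pandas 2.3.3 and SciPy 1.17.1 were used. The nucleus, the pair of chromosomes 8 and 11, the gene lists and the tests were chosen with earlier results of these data known. Genes named are the 6 pluripotency genes, members at the ends of each list, genes of the 3 lowest and 3 highest bins (at least 10 windows) of chromosomes 8 and 11, and, chosen after their values were seen, genes of the bins that filled a slice. The 5 controls and chromosome X were not analysed here.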

Additional observations from a re-analysis of the deposited data

How the results depend on the processing

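Every gradient of Cell26 stayed positive under all settings run, and 1 nucleus without read counts limits all of them. The gradient over bins was 0.157 without slices 3, 5 and 6, 0.121 with slices 1, 2, 4 and 7 alone and 0.151 without slices 5, 6 and 7, and within chromosomes these were 0.161, 0.124 and 0.146, all chosen after seeing the data. Within chromosomes it was 0.164 with 250 kb bins. Between chromosomes it was 0.467 without the outermost slices, 0.425 without slices 5, 6 and 7 and 0.186 without chromosomes 8 and 11. Leaving out 1 slice gave 0.187 to 0.262 over bins, 0.184 to 0.264 within and 0.260 to 0.379 between chromosomes, and -0.77 to -0.31 for gene density against window number.

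In the other 9 nuclei the held-out gradient had an unadjusted exact sign-flip p over 0.05, against 0.0469 in the reported setting, with 250 kb bins (0.031, p = 0.113), the median of a bin (0.041, p = 0.148), slice windows alone (0.037, p = 0.117), the outermost slices left out (0.054, p = 0.0664), all genes (0.050, p = 0.102) and no subtraction of chromosome means (0.059, p = 0.0703). In batch 16 alone it was 0.022 (p = 0.625) and in batch 18 alone 0.074 (p = 0.0625), the smallest p that 5 nuclei allow. With the odd-numbered autosomes turning the axis it was 0.069 (p = 0.0234), and p was also under 0.05 in file 0 (0.052, p = 0.0117), in file 1 (0.059, p = 0.0117), without windows in both files (0.067, p = 0.0156), with at least 5 windows per bin (0.057, p = 0.0391) and without receptor genes (0.073, p = 0.00391), all unadjusted. Slice windows against gene density gave -0.187 (p = 0.176) in file 0, -0.222 (p = 0.141) in file 1, -0.257 (p = 0.125, the smallest p that 4 nuclei allow) in batch 16 and -0.284 (p = 0.375) in batch 18. Leaving out 1 nucleus gave 0.034 to 0.061 for the held-out gradient, with an unadjusted exact sign-flip p from 0.0234 to 0.0938. For slice windows against gene density it gave -0.331 to -0.184, with p from 0.0156 to 0.0781. The distance of chromosomes 8 and 11 turned to -9.36 in batch 16 alone and ranged over 4.90 to 15.7 without 1 nucleus. The correlation of pair distances turned to -0.017 without the outermost slices, -0.0055 in file 1 and -0.0055 in batch 16, and ranged over 0.0052 to 0.029 without 1 nucleus. The cause of these changes was not tested. The median of a bin was not run for slice results, nor slice windows alone for window number, where it changes nothing. No paired analysis was possible because replicate numbers only name the serial profiles of a nucleus in accession order, and each nucleus gave 1 value to a test.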
